A study of Mus musculus with 6 samples.

Results

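The Bcas1-rich barcodes were 110 of the 950 kept cell barcodes of 1 targeted single-cell library of mouse hypothalamus, or 11.6% (exact Clopper-Pearson 95% interval 9.61% to 13.8%). They were chosen by their Bcas1 level alone. A barcode was kept with at least 20 UMIs (unique molecular identifiers, each a counted transcript molecule) in at least 5 genes, and it was a member with at least 5 Bcas1 UMIs that made up at least 12% of its UMIs. The working label was oligodendrocyte-like, with Ermn and Ugt8a as the other markers. Few genes could bear on that label. Of the lists reported here, the gene set measured 2 of 17 oligodendrocyte genes, 2 of 9 newly formed oligodendrocyte genes and 1 of 10 precursor genes. The members had a median of 50.5 UMIs without Bcas1. On these genes and at this depth the label was neither borne out beyond Bcas1 itself, as given below, nor excluded. The barcodes are therefore called Bcas1-rich throughout.

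Oligodendrocytes are the glia that wrap axons of the central nervous system in myelin, and they arise from precursor cells that carry the proteoglycan NG2, the product of Cspg4. Bcas1 encodes a protein of the oligodendrocyte lineage that is known as a mark of newly formed, early myelinating cells. Ermn encodes ermin, a cytoskeletal protein of maturing oligodendrocytes, and Ugt8a encodes the enzyme that makes galactosylceramide, a main lipid of myelin.

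The study profiled cells of C57/Bl6 mice that carried the KLB-CRE and Ai14 alleles, 3 pooled hypothalami to a capture, on the BD Rhapsody platform with 2 custom primer panels. In this cross Cre is driven by the promoter of Klb, which encodes the co-receptor of FGF21, and tdTomato marks every cell whose lineage has expressed Cre, whether or not Klb is on at the time. Cells were sorted for tdTomato and for viability by Hoechst, and no Cre-negative group was among the samples used here. The values below are from panel 1 of replicate 1, which is 1 library of pooled animals, so no test between groups was possible. Intervals are 95% and cover counting error only.

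The library held 1555 barcodes, of which 605 fell under the filter. The kept barcodes held 105772 UMIs over 157 detected genes of 265 measured, and 141 of these genes were detected in the Bcas1-rich barcodes. Bcas1 was the gene with the most UMIs of the library, with 6401, and 34 kept barcodes had none. No barcode was shared with another table of the series. Depth differed widely between barcodes, with a median of 64 UMIs in the Bcas1-rich barcodes (20 to 382) and 50 in the other 840 (20 to 3838).

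Bcas1 itself, by which the barcodes were chosen, is given as a description. The 110 barcodes held 2294 of the 6401 Bcas1 UMIs, or 35.8%. In sum, Bcas1 made up 22.7% of their UMIs and 4.29% of the UMIs of the others. Single Bcas1-rich barcodes had 5 to 69 Bcas1 UMIs with a median of 18, which was 12% to 81.0% of their UMIs with a median of 23.8%. The other barcodes had a median of 2 Bcas1 UMIs and 4.55%. The shares ran on across the threshold without a gap. The nearest barcodes inside were at 12%, 12.3%, 12.4%, 12.5% and 12.7%, and the nearest outside with at least 5 Bcas1 UMIs were at 11.8%, 11.7%, 11.6%, 11.5% and 11.4%. A further 12 barcodes reached 12% with fewer than 5 Bcas1 UMIs, and 221 had at least 5 Bcas1 UMIs under 12%.

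**Figure D1:**
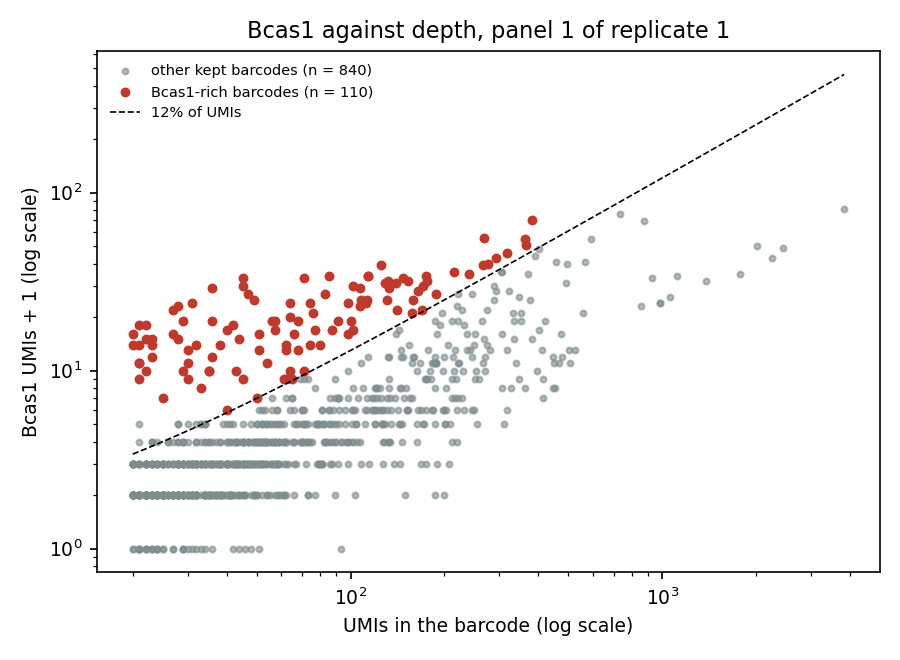
Bcas1 UMIs plus 1 of each kept barcode against its total UMIs, both on log scales, with the 110 Bcas1-rich barcodes in red, the other 840 in grey and the dashed line at 12% of UMIs. The red points reach down to 20 UMIs and end at 382, while the grey points run on to 3838 UMIs.

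The Bcas1-rich barcodes were not spread evenly over depth. Counted by UMIs without Bcas1, they made up 17.3% of the barcodes under 25 UMIs, 5.73% from 25 to 34, 18.2% from 70 to 99 and 8.62% from 250 to under 500. The share in the lowest bin was set by the filter, which counted Bcas1: 26 of its members had fewer than 20 UMIs without Bcas1 and were kept only through it. From 20 to 24 UMIs without Bcas1 there were 5 members and 117 others, or 4.10% (1.34% to 9.31%). None of the 18 barcodes with 500 or more was Bcas1-rich, which allows a share of up to 18.5%. The barcode with the most Bcas1 UMIs of the library, 80, had 3838 UMIs in all, so that Bcas1 was 2.08% of them and it was no member. Depth also fell as the Bcas1 share rose. The 37 members at 12% to under 20% had a median of 131 UMIs, the 44 at 20% to under 40% had 71, and the 29 at 40% and over had 28. After Bcas1 was taken out, these last had a median of 11 UMIs left, so their other genes were scarcely sampled.

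Other genes were therefore compared at matched depth. Bcas1 was left out of the totals, barcodes were put into 9 bins of the remaining UMIs, and the matched value of a gene is the number of UMIs that the 110 barcodes would hold at the rates of the other barcodes of their bins. The lowest bin was matched least well, with a median of 12 UMIs without Bcas1 in the Bcas1-rich barcodes and 21 in the others. Of the 96 genes with at least 100 UMIs in the library, 4 were at least 1.5-fold above their matched value, or 4.17% of the genes, and 8 were at least 1.5-fold below, or 8.33%. The other 84 lay between. The median fold over the 96 genes was 0.987, with 5% of genes at or below 0.609 and 5% at or above 1.41. Outside Bcas1, most genes thus lay within 1.5-fold of their matched value. Summed over all genes, matched and observed UMIs are equal by construction, which holds the median fold near 1. The reference also pools all other kept barcodes, so this closeness says little about cell type.

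**Figure D2:**
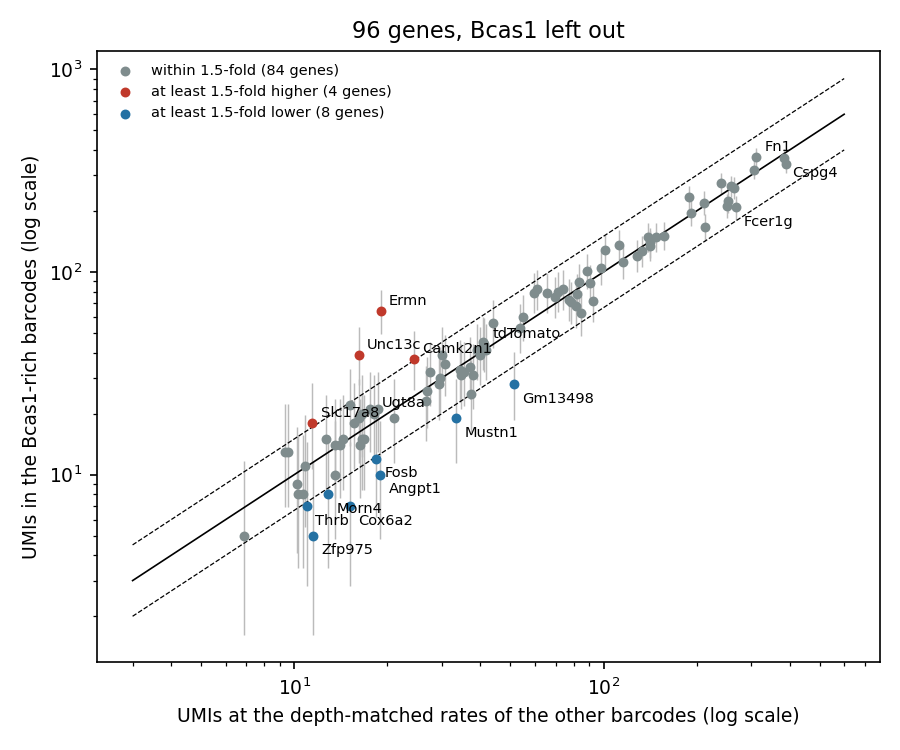
UMIs of 96 genes in the 110 Bcas1-rich barcodes, with exact Poisson 95% intervals as bars, against the depth-matched UMIs of the other barcodes, both on log scales; the solid line marks equality and the dashed lines 1.5-fold. Ermn and Unc13c stand farthest above the line, Gm13498 and Mustn1 are among the 8 genes below it, and 84 genes lie between the dashed lines.

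Of the myelin genes, Ermn had the largest fold of the 96 genes, but it rested on a pair of barcodes. The Bcas1-rich barcodes held 64 Ermn UMIs against 19.0 matched, a 3.36-fold difference (interval 2.59 to 4.30). One barcode with 366 UMIs held 22 of the 64 and another with 165 UMIs held 21, together 67.2%, and no other member had more than 2. In those barcodes Bcas1 was 13.7% and 16.4% of UMIs and Ugt8a was at 0 UMIs in both. Without them the Ermn count was 21 against 18.2 matched, 1.15-fold (0.714 to 1.76), and with the rule set at a Bcas1 share of 20%, which both miss, Ermn was 0.934-fold. A UMI of Ermn was seen in 20 of the 110 barcodes, 18.2% (11.5% to 26.7%), against a matched number of 16.9. Of 5 barcodes in the library with at least 5 Ermn UMIs, 2 were Bcas1-rich, and the other 3 had Bcas1 at 8%, 7.76% and 11.0% of UMIs.

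Ugt8a differed less from its matched value. The Bcas1-rich barcodes held 20 Ugt8a UMIs against 18.1 matched, 1.11-fold (0.675 to 1.71), and 10 of the 20 were in 1 barcode of 382 UMIs. That barcode had the most Bcas1 UMIs of all members, 69, or 18.1% of its UMIs, and 1 Ermn UMI. A UMI of Ugt8a was seen in 10 members against a matched number of 11.6. The highest Ugt8a counts of the library, as the plot of marker UMIs against Bcas1 share shows, were in barcodes outside the Bcas1-rich set.

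At least 1 of Ermn and Ugt8a was seen in 26 of the 110 barcodes, about as many as the 27.3 matched, and neither in 84, or 76.4%. Both were seen together in 4 barcodes against 1.16 matched, a difference of few barcodes. With barcodes of at least 20 UMIs without Bcas1, the number with either gene was 25 against 25.2 matched. For comparison, Ermn was seen in 10 of 45 barcodes that met the same rule on 3 summed vessel transporters, 22.2% at a median of 50 UMIs. That set is nearest in median depth to the Bcas1-rich barcodes, with 18.2% at 64. Ermn was also seen in 4 of 18 that met the rule on Fcer1g, a myeloid receptor subunit, 22.2% at a median of 143.5 UMIs. The rule on Fn1 gave 6 of 13, 46.2% at 127, and the rule on Rarres2 gave 3 of 25, 12% at 175. The share in the Bcas1-rich barcodes was below that of the vessel set, on small counts. Per 1000 UMIs without the genes of the rule, the order was the other way, at 8.18 in the Bcas1-rich barcodes and 1.12 in the vessel set. Of the 64 Ermn UMIs behind the 8.18, 43 were in 2 barcodes. These shares do not settle whether Ermn in the Bcas1-rich barcodes was background, since only median depth was alike. The deeper sets are given side by side only, and 2 barcodes of the vessel set were also Bcas1-rich.

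**Figure D3:**
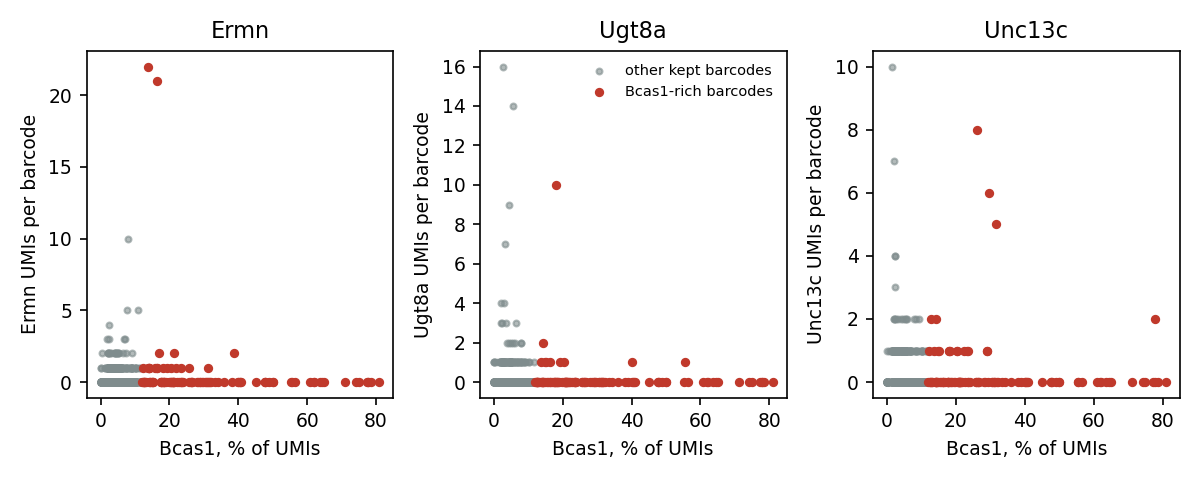
UMIs of Ermn, Ugt8a and Unc13c in each kept barcode against the percentage of its UMIs that were Bcas1, with the 110 Bcas1-rich barcodes in red and the other 840 in grey. The barcodes with 22 and 21 Ermn UMIs and the one with 10 Ugt8a UMIs lie under 20% Bcas1, and the 3 with 8, 6 and 5 Unc13c UMIs lie between 26.2% and 31.6%.

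The counts of the myelin genes did not follow the Bcas1 share within the members. Ermn came to 55 UMIs in 13 of the 37 barcodes at 12% to under 20% Bcas1, to 9 UMIs in 7 of the 44 at 20% to under 40%, and to 0 in the 29 at 40% and over, whose 386 UMIs without Bcas1 allow up to 7.77 per 1000. Ugt8a came to 17, 1 and 2 UMIs in the same classes. The classes were of unlike depth, with 4759, 2681 and 386 UMIs without Bcas1, and 43 of the 55 Ermn UMIs were in 2 barcodes. Below the rule, Ermn stood at 1.56 per 1000 UMIs in barcodes under 4% Bcas1 (1.24 to 1.93), 2.66 at 4% to under 8% (2.11 to 3.32) and 3.77 at 8% to under 12% (2.64 to 5.22). In the last class, 10 and 5 of the 36 Ermn UMIs were in 2 barcodes. The share of barcodes with an Ermn UMI showed no such order, at 20.4%, 15.4% and 20.4%, and neither did Ugt8a, at 1.46, 2.49 and 1.15 per 1000. The median depths of these classes were 59, 47 and 36.5 UMIs, and the part of depth was not tested.

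Genes of the earlier lineage were near their matched values. Cspg4, the NG2 gene of precursors that pericytes also express, came to 364 UMIs against 382 matched, 0.952-fold (0.857 to 1.06), and was seen in 97 of the 110 barcodes against 98.8. Fyn, a kinase of oligodendrocyte differentiation, came to 31 UMIs against 34.5, 0.898-fold (0.610 to 1.28). Bmp4, a secreted signal that newly formed oligodendrocytes express, came to 20 against 16.5, 1.21-fold (0.740 to 1.87). None of the 3 was past 1.5-fold, and each interval held 1.

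The other 3 genes above 1.5-fold were on none of the oligodendrocyte lineage lists. Unc13c, which encodes a synaptic vesicle priming protein, came to 39 UMIs against 16.2, 2.41-fold (1.72 to 3.30), in 20 barcodes against 15.0 matched. Its 3 richest members held 8, 6 and 5 UMIs, at Bcas1 shares of 26.2%, 29.7% and 31.6% and totals of 107, 64 and 57 UMIs. None of them had Ermn or Ugt8a. The most Unc13c UMIs of the library, 10, were in a barcode of 212 UMIs that was not Bcas1-rich, with Bcas1 at 1.42%. By class of Bcas1 share, Unc13c came to 11 UMIs in 9 of 37 barcodes, 26 in 10 of 44, and 2 in 1 of 29. These classes held 4759, 2681 and 386 UMIs without Bcas1. With each count limited to 3 UMIs a barcode, a setting added after the data were seen, its fold was 1.56. Without its richest member the fold was 1.94, and a fold without all 3 of the richest was not computed.

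Camk2n1, an inhibitor of the kinase CaMKII, came to 37 UMIs against 24.4, 1.52-fold (1.07 to 2.09), in 28 barcodes against 20.5. No member held more than 3 of its UMIs. Slc17a8, the vesicular glutamate transporter VGLUT3, came to 18 UMIs against 11.4, 1.57-fold (0.932 to 2.49), in 16 barcodes against 10.1. Its interval held 1. Neither call held at every Bcas1 share. At 8%, 10%, 15% and 20%, Slc17a8 was 1.44-fold, 1.37-fold, 1.46-fold and 2.10-fold. Camk2n1 was 1.12-fold, 1.23-fold, 1.60-fold and 1.96-fold.

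The 8 genes lower by at least 1.5-fold belonged to different groups. Angpt1, a ligand of the endothelial receptor Tie2, came to 10 UMIs against 19.0, 0.527-fold (0.253 to 0.970), in 7 barcodes against 15.0. Mustn1, a small nuclear protein of smooth and skeletal muscle, came to 19 against 33.3, 0.570-fold (0.343 to 0.891). Cox6a2, a muscle form of a cytochrome c oxidase subunit, came to 7 against 15.1, 0.463-fold (0.186 to 0.955). The noncoding transcript Gm13498 came to 28 against 51.2, 0.546-fold (0.363 to 0.790). Zfp975, Morn4, Thrb (a thyroid hormone receptor) and Fosb (a transcription factor of the early response) had folds of 0.436, 0.621, 0.638 and 0.651, each with an interval that held 1. All 8 stayed below 1-fold in each of 21 other settings, though not all stayed 1.5-fold below.

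Lists of genes of other cell types were then summed, as the plot of gene lists shows. The mural list, Acta2 of smooth muscle and Mustn1, was lowest at 0.694-fold (0.552 to 0.862), with 1 of 2 genes past 1.5-fold. The single myeloid gene Fcer1g came to 208 UMIs against 267, 0.778-fold (0.676 to 0.892), and the early response list to 0.840-fold (0.769 to 0.915), with 1 of 4 tested genes past 1.5-fold. In that list Nr4a1, a nuclear receptor induced by stimuli, came to 166 against 213 and Btg2, an antiproliferative gene, to 212 against 251. The ependymal list stood at 0.883-fold (0.794 to 0.979), most of it Rarres2, which encodes chemerin, at 342 against 388. These differences were within 1.5-fold except for the mural and early response members named above.

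**Figure D4:**
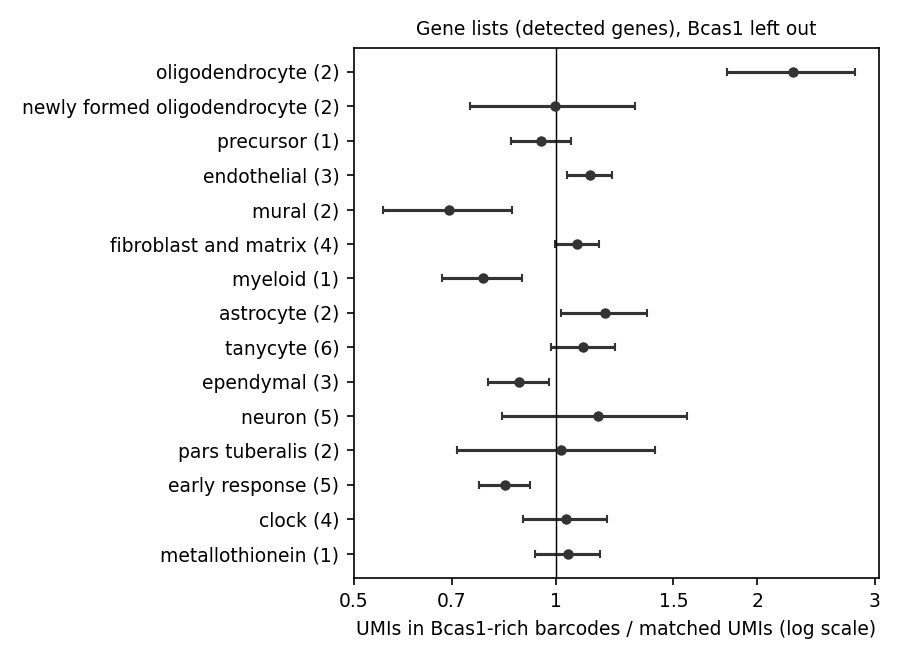
Fold of the summed UMIs of each gene list in the 110 Bcas1-rich barcodes over the depth-matched value, on a log scale with 95% intervals from the exact Poisson counts and the number of detected genes in brackets. The oligodendrocyte list is Ermn and Ugt8a, at 2.26-fold with 43 of its 84 UMIs in 2 barcodes; all other lists lie between 0.694-fold and 1.18-fold.

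Other than Ermn and Ugt8a, no list was 1.5-fold higher. The endothelial list stood at 1.13-fold (1.04 to 1.21), and was seen in 99 of the 110 barcodes against 104.8 matched. Within it the glucose transporter Slc2a1 came to 234 UMIs against 189 and the thyroid hormone transporter Slco1c1 to 274 against 239.9. Of the 234 Slc2a1 UMIs, 38 were in 1 barcode, without which the Slc2a1 fold was 1.07. The astrocyte list stood at 1.18-fold (1.02 to 1.37), with the gap junction gene Gja1 at 136 against 112. The tanycyte list stood at 1.10-fold (0.986 to 1.23), with the orphan receptor Gpr50 at 128 against 101.2 and Nes, an intermediate filament of progenitors, lower at 25 against 37.2. The fibroblast and matrix list stood at 1.08-fold (0.999 to 1.16). The neuron list stood at 1.16-fold (0.831 to 1.57), and the clock, pars tuberalis and metallothionein lists between 1.02-fold and 1.04-fold. Fn1, the fibronectin gene, came to 368 against 311, and Sox2, a transcription factor of neural progenitors and glia, to 82 against 61.1. Over the 96 genes, the interval left out 1 for 10 genes above and 11 below, and most of these had folds under 1.5. Since UMIs of a gene cluster in single barcodes, counting intervals are narrower than the true spread.

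The reporter was as frequent as in the other barcodes. tdTomato came to 44 UMIs against 41.1, 1.07-fold (0.777 to 1.44), and was seen in 34 of the 110 Bcas1-rich barcodes, 30.9% (22.4% to 40.4%), against 30.9 matched. The rest of these sorted barcodes had no reporter UMI at their depth. Klb was listed at 0 UMIs in these barcodes, which allows up to 0.383 per 1000 UMIs, and was at 0 in the whole library too. Fgfr1, a receptor that works with the Klb protein, came to 80 UMIs against 71.1, 1.12-fold (0.892 to 1.40).

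The rule was also put to each other gene, to see how often 1 gene reaches such a share. Among 97 genes with at least 100 UMIs, 60 had a barcode that met it, 8 had at least 10, and Bcas1 with 110 had the most. Rarres2 followed with 25, Cspg4 with 24, Fcer1g with 18 and Mt2, a metallothionein, with 14. Bcas1 also had the most UMIs of any gene, which makes the rule easier to meet. Its highest share of a barcode, 81.0%, was below those of Cox6a2 at 84.4% and Vamp2 at 81.8%, so a barcode filled mostly by 1 gene was not particular to Bcas1. None of the 18 Fcer1g-rich barcodes was Bcas1-rich. Of 45 barcodes that met the rule on the summed vessel transporters Slco1a4, Slco1c1 and Slc2a1, 2 were.

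**Figure D5:**
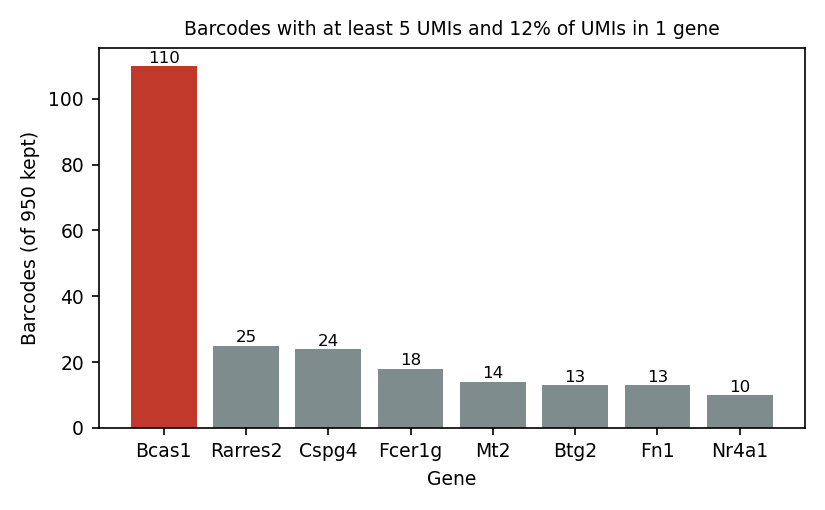
Number of the 950 kept barcodes in which 1 gene had at least 5 UMIs and at least 12% of UMIs, for the 8 genes with at least 10 such barcodes. Bcas1 had 110, and the next gene, Rarres2, had 25.

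Barcodes of the same gene set in the panel 2 libraries were few, and Bcas1 was present in all of them. Panel 2 of replicate 1, from the same capture, had 44 barcodes with a median Bcas1 share of 7.28%, and 9 met the rule, 20.5% (9.80% to 35.3%), at shares of 16.0% to 36.1%. Replicate 2 had 43 barcodes with a median share of 0.974%, and 1 met the rule. Replicate 3 had 87 with a median of 0.999%, and 0 met it, which allows up to 4.15%. Median depth was 115.5, 1352 and 1068 UMIs in the 3 libraries. Barcodes meeting the rule thus came mainly from the shallow libraries of replicate 1, and library, depth and capture cannot be told apart there.

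In panel 2 of replicate 1, Ermn and Ugt8a were both at 0 UMIs in all 44 barcodes, which allows up to 0.290 per 1000 over the library. By the exact Poisson interval, the 0 allows up to 2.37 per 1000 in the 9 barcodes that met the rule and 0.421 in the other 35. The limit for the 9 was near the matched 2.43 (Ermn) and 2.31 (Ugt8a) per 1000 of panel 1. With both genes at 0 in the whole library, they could not be compared between the 9 and the 35. Unc13c was at 7.06 per 1000 in those 9 (3.52 to 12.6) and at 3.19 in the 35 (2.12 to 4.61), and was seen in 6 of 9 and 17 of 35. The intervals overlapped. Unc13c was listed at 0 in replicates 2 and 3, so its difference had no further library to be seen in.

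In replicates 2 and 3 the barcodes were split at the median Bcas1 share. In replicate 2, Ermn was at 15.2 per 1000 UMIs above the median and 4.60 below, and Ugt8a at 30.2 and 5.15. One barcode of 11434 UMIs, with 536 Bcas1 UMIs or 4.69%, held 407 of the 778 Ermn UMIs and 935 of the 1390 Ugt8a UMIs. Without it the values above the median were 6.82 for Ermn and 9.02 for Ugt8a. The median barcode had 9 Ermn and 10 Ugt8a UMIs on both sides. These counts were at unlike depth, with a median of 1249.5 UMIs above and 1739 below. In replicate 3, Ermn was at 1.07 above and 0.580 below, and 47 of its 91 UMIs were in 1 barcode of 3066 UMIs with Bcas1 at 4.57%. Without that barcode Ermn was at 0.274 above the median, below the 0.580 of the other side. Ugt8a in replicate 3 was at 0.935 above and 0.220 below, with 35 of 54 UMIs above in 1 barcode. In both replicates the barcode richest in Ermn had a Bcas1 share above the median and under the 12% of the rule.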

How the data were processed

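Values are deposited UMI counts per cell barcode and amplicon, not normalized. Per the file headers, the vendor's pipeline for targeted Rhapsody data ran in version 1.3 for this library and in 1.5 for the rest. The submitters' processing notes name build mm9. Aligner and cell calling: not given in the sources used here. The 290 amplicons of the larger gene set were summed to 265 symbols. Barcodes with fewer than 20 UMIs or 5 genes were left out, and no doublet caller was run. Leaving out the deepest 5% of barcodes was an alternative. Matched values used bins of UMIs without Bcas1 with edges at 25, 35, 50, 70, 100, 150, 250 and 500. A gene was compared with at least 100 UMIs and called at 1.5-fold, and 1 gene is not reported here. Counts have exact Poisson and shares exact Clopper-Pearson 95% intervals. A count of 0 UMIs allows up to 3 counts, unless an exact interval is named. With 1 library there is no test and no p-value. In panel 2 of replicate 2, 21 barcodes also found in a table of replicate 3 were left out. Named genes are Bcas1, Ermn and Ugt8a, the detected genes of the lineage lists, the 10 with the largest folds each way, up to 4 of each other list, tdTomato, Klb, Fgfr1 and Fgfr2. Vamp2 and single barcodes were named after their values were seen. The members and lists were chosen with earlier results of these data known. The depth matching was tested on simulated data with UMIs drawn independently. Those data had no clustering of a gene's UMIs in single barcodes, so the test does not cover it. Python 3.11.15, numpy 2.4.6, pandas 2.3.3, scipy 1.17.1 and matplotlib 3.10.9 were used.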

Additional observations from a re-analysis of the deposited data

Results flagged for a closer look

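Among the 605 barcodes under the filter of 20 UMIs and 5 genes, which entered no comparison, 20 met the Bcas1 rule. They were looked at because they carry the signal outside the kept barcodes. They had a median of 16.5 UMIs, with 3 Ermn and 0 Ugt8a UMIs in all. Bcas1 was 10.1% of the 6766 UMIs left out, against 6.05% of the UMIs kept.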

How the results depend on the processing

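Results were recomputed under 21 other settings, 3 of them chosen after seeing the data. Of 1155 folds of 55 named genes, 1077 stayed within the counting interval of the reported fold and 76 fell outside it. The other 2 were of Ermn, the 1 gene of the 12 past 1.5-fold whose fold crossed 1 under some setting. Of the 43 named genes within 1.5-fold or under the filter, 34 crossed 1 under at least 1 setting, Ugt8a among them at 0.334-fold with a 20% share and 0.539-fold without the deepest 5%. With the Bcas1 share at 20%, 73 barcodes were members, 10 genes were higher and 15 lower, Ermn fell to 0.934-fold and Ermn and Ugt8a summed to 0.644-fold, from 2.26-fold. Below the members' median depth, where 41 genes passed the filter, 55 members had 1 gene higher and 3 lower, Ermn at 0.411-fold and the sum at 0.569-fold. At or above it there were 55 members, with 5 genes higher and 6 lower, Ermn at 4.35-fold and the sum at 2.78-fold. The sum was also above its reported value with at least 10 Bcas1 UMIs, at 2.42-fold, without depth bins, at 2.75-fold, and with the top amplicon of a symbol, at 2.53-fold. At an 8% share 2 genes were lower and the sum was 1.78-fold. With at least 50 UMIs a barcode there were 68 members and the sum was 2.30-fold. Without the deepest 5% of barcodes the sum was 1.45-fold. With each barcode weighted alike 8 genes were higher, 14 lower and the sum was 1.22-fold. With genes of at least 200 UMIs 4 were lower, with no filter on genes 12 were higher and 16 lower, and at 2-fold 2 were higher and 2 lower. Of the settings chosen after seeing the data, leaving out the 2 members richest in Ermn gave a sum of 1.15-fold, and counts limited to 3 UMIs gave 1 gene higher and a sum of 1.12-fold. At least 20 UMIs without Bcas1 left 84 members, with 4 genes higher and 6 lower. Morn4, Thrb and Slc17a8 lost their calls, at 0.731-fold, 0.679-fold and 1.497-fold, and Cspg5 gained one at 1.56-fold. Of the 22 Cspg5 UMIs of the members, 9 were in 1 barcode, without which its fold over all members was 0.878. The cause of these shifts was not tested, apart from the fewer genes or barcodes that a filter leaves. Unc13c ranged from 1.56-fold to 6.50-fold over all settings and kept above 1.5-fold in each. No setting left out all 3 of the members richest in Unc13c, as was done for the 2 richest in Ermn. No paired analysis was possible because the results come from 1 library and no test. Depth limits the members above 40% Bcas1 most.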
